A study of Mus musculus with 3 samples.

Results

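The genes described here are 10 transcription factors of the mammary epithelial lineages, found by gene name among the 22378 gene models listed for each of 3 libraries. Gata3, Elf5, Foxa1, Ehf, Elf3 and Tbx3 are known from the inner, luminal cells of the gland, and Trp63, Sox9, Sox10 and Runx1 from the outer, basal cells or from basal cells and progenitors. Each name stood on 1 gene model, and 9 of the 10 factors had the status OK in all 3 libraries. The exception was Runx1, whose value in the library of lung-recovered cells carries the status FAIL.

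The mammary gland is a branched tube of luminal cells wrapped in contractile basal cells, and both lineages are kept apart by transcription factors that switch on their own keratins, receptors and secreted products. Among luminal cells, those that sense estrogen and progesterone depend on Foxa1 and Gata3, and those that make milk depend on Elf5. Basal cells depend on Trp63, the mouse gene for p63, which also maintains the basal layer of skin and airway. Sox9 and Sox10 are close relatives of the SoxE group and are known from mammary progenitors as well as from cartilage and neural crest.

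Expression was measured by RNA sequencing in 3 pooled libraries of FVB mice, with 1 library per group. The first group, LCC (lung-colonizing cells), held mammary cells sorted from dissociated lungs 1 day after they had been injected into a vein, recognised by green fluorescent protein (GFP) in some experiments and by the dye DDAO in others. The design describes an experiment as cells of 8 FVB.GFP females given to 4 FVB recipients in 2 doses of 2500000 cells, while the label of the sample also names DDAO-stained cells of FVB mice. The library pooled 15 experiments, 42 lungs and 455880 cells. The second group, E-Int29-Hi, held dissociated mammary cells taken by a flow sorter at the gate of intermediate EpCAM and high CD29, with 3 samples combined, and is labelled as the subset that contains the colonizing cells. The third group, MG, was the intact gland, never broken up into cells, with 3 samples combined, so it also holds stroma, vessels and nerves. Ages are not given in the sources used here, and a lung cell sorted together with the mammary cells would be read as LCC. The study set out to profile LCC and to find the genes that differ among the 3 groups.

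Values are FPKM, fragments mapped to a gene model, scaled to its length and to the size of the library, so levels can be ordered between genes. Between libraries they also depend on what else each library holds, and changes were therefore also computed with other scalings. The FPKM of all models summed to 377918 in LCC, against 330432 in E-Int29-Hi and 291133 in MG. Read counts are not given, so the depth behind each value is unknown, and with 1 library per group no difference has a replicate check and no p-value is given. Models listed at 0 numbered 6871 in LCC, against 4984 in E-Int29-Hi and 3184 in MG, so a value of 0 was most common in LCC. The markers of both lineages showed how the libraries differ. The 8 luminal markers, mostly keratins and claudins, summed to 4865 FPKM in LCC, against 534 in E-Int29-Hi and 2640 in MG. Their geometric mean was 188 FPKM in LCC, against 21.2 in E-Int29-Hi and 163 in MG. The 12 basal markers summed to 752 FPKM in LCC, against 8555 in E-Int29-Hi and 644 in MG. LCC and MG stood in the other order by the geometric mean of the 12, which was 14.3 FPKM in LCC, against 261 in E-Int29-Hi and 30.2 in MG, with a median log2 change of -0.84 for LCC over MG. E-Int29-Hi was therefore the basal-rich library. LCC had the highest sum of luminal markers, but not every member was highest there: Krt19 stood at 244 FPKM in LCC and 488 in MG. Epcam stood at 325 FPKM in LCC, against 279 in E-Int29-Hi and 209 in MG.

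The 10 factors did not follow 1 common order across the libraries. Of the 4 basal factors, Sox10, Trp63 and Runx1 were highest in E-Int29-Hi and Sox9 was highest in MG. The 6 luminal factors split further: Foxa1, Elf5 and Tbx3 were highest in MG, Ehf and Elf3 in LCC, and Gata3 in E-Int29-Hi. Summed over the 10 factors, the basal ones held 57.6% of the FPKM in LCC, against 87.2% in E-Int29-Hi and 61.1% in MG. Without Runx1, whose LCC value has the status FAIL, these shares were 39.7% in LCC, against 79.1% in E-Int29-Hi and 51.5% in MG. In LCC and MG most of this smaller basal sum was Sox9. It made up 34.8 of 56.2 FPKM in LCC, against 49.9 of 311 in E-Int29-Hi and 71.6 of 110 in MG. The luminal sum moved little, at 85.3 FPKM in LCC, against 82.2 in E-Int29-Hi and 104 in MG, with different luminal factors leading it in each library.

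**Figure D1:**
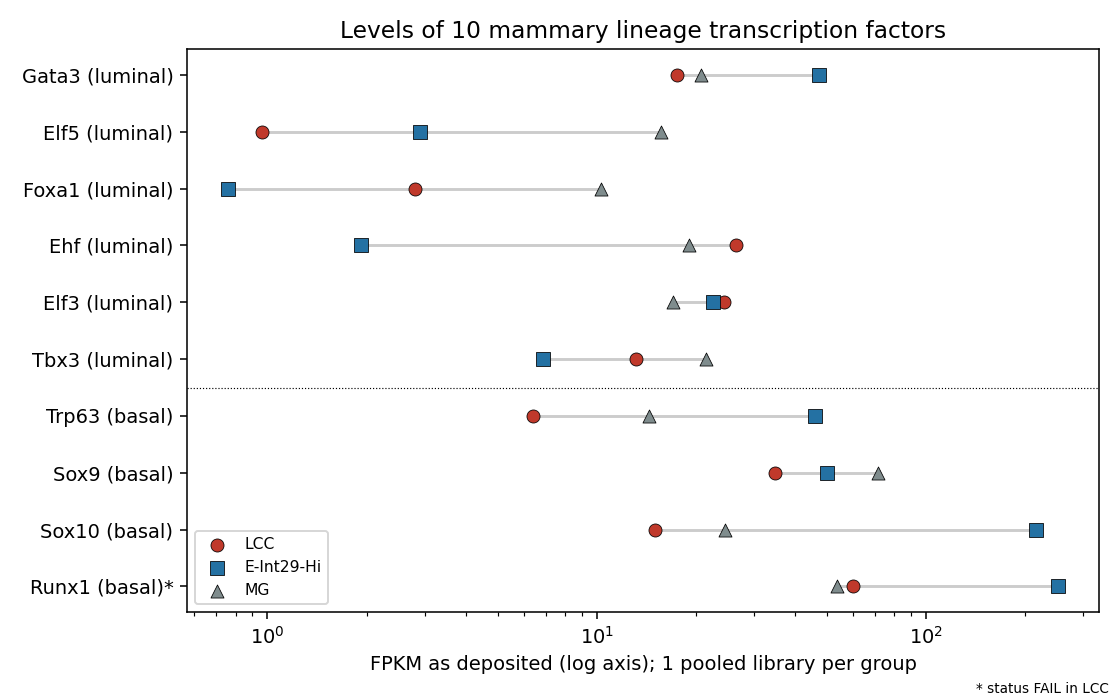
Level of each factor in FPKM (log axis) in LCC, E-Int29-Hi and MG, 1 pooled library each, with luminal factors above the dotted line and basal factors below it. Sox10 spans 15.0 to 215 FPKM and Elf5 0.964 to 15.6 FPKM, whereas the 3 values of Elf3 lie between 17.0 and 24.4 FPKM.

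Sox10, a SoxE factor needed for neural crest and known from mammary progenitor cells, had the widest spread of the basal factors. It stood at 15.0 FPKM in LCC, against 215 in E-Int29-Hi and 24.5 in MG. The E-Int29-Hi library alone held 84.5% of the sum over the 3 libraries. On the log2(FPKM + 1) scale, which understates changes of low genes, the difference was -3.76 for LCC over E-Int29-Hi, and 0.766% of the names tested in that comparison stood lower. For E-Int29-Hi over MG it was 3.09, and for LCC over MG it was -0.67. In these pooled RNA samples, fewer cells that express a gene and less RNA of it per cell cannot be told apart.

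Trp63 encodes p63, which sets the identity of basal cells and maintains their keratin and adhesion genes. It stood at 6.41 FPKM in LCC, against 46.0 in E-Int29-Hi and 14.4 in MG. LCC was the lowest library, at a level 7.17-fold under E-Int29-Hi and 2.24-fold under MG. The log2 changes were -2.66 for LCC over E-Int29-Hi, -1.05 for LCC over MG and 1.61 for E-Int29-Hi over MG. Gene-level FPKM do not separate the full-length and the N-terminally truncated forms of p63.

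Trp63 and the basal keratins were not in a fixed ratio. Per 1000 FPKM of Krt14, Trp63 stood at 30.5 FPKM in LCC, against 19.3 in E-Int29-Hi and 138 in MG. Krt14 stood at 209.8 FPKM in LCC, against 2380.5 in E-Int29-Hi and 104 in MG. Per 1000 FPKM of Krt5, Trp63 stood at 69.5 FPKM in LCC, against 108 in E-Int29-Hi and 237 in MG. Both ratios were highest in MG, and LCC lay above E-Int29-Hi for Krt14 but below it for Krt5.

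Runx1, a Runt-domain factor of blood stem cells and of mammary epithelium, was the most abundant of the 10 factors in LCC and in E-Int29-Hi. It stood at 59.8 FPKM in LCC, with the status FAIL, 250.5 in E-Int29-Hi and 53.5 in MG. The E-Int29-Hi value was the highest of the 3, and both E-Int29-Hi and MG have the status OK. Their log2 difference was 2.21 for E-Int29-Hi over MG. The LCC value gave -2.05 for LCC over E-Int29-Hi and 0.16 for LCC over MG, both resting on the failed estimate. Runx1 is left out of the counts below for that status.

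Sox9, a SoxE factor of cartilage and of luminal and basal mammary progenitors, was abundant in all 3 libraries and was the most abundant of the 10 factors in MG. It stood at 34.8 FPKM in LCC, against 49.9 in E-Int29-Hi and 71.6 in MG. The order was LCC lowest and MG highest, with 2.06-fold between the ends. On the log2 scale Sox9 differed by -0.51 for LCC over E-Int29-Hi, -1.02 for LCC over MG and -0.51 for E-Int29-Hi over MG, the last turning to 1.22 with libraries scaled to pan-epithelial genes. The ratio of Sox10 to Sox9 was 0.430 in LCC, against 4.32 in E-Int29-Hi and 0.342 in MG, so Sox10 exceeded Sox9 in E-Int29-Hi and stood under it in the other libraries.

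The ETS factors Ehf, Elf3 and Elf5 belong to the epithelium-specific branch of their family, and each had its own pattern. Ehf, known from luminal and glandular epithelium, stood at 26.4 FPKM in LCC, against 1.92 in E-Int29-Hi and 19.0 in MG. E-Int29-Hi was the low library, 13.8-fold under LCC and 9.88-fold under MG. The log2 changes were 3.23 for LCC over E-Int29-Hi, where 1.20% of names stood higher, 0.46 for LCC over MG, which turned to -0.16 with libraries scaled to Epcam, and -2.77 for E-Int29-Hi over MG.

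Elf5, which drives alveolar differentiation and milk production together with Stat5a, was the least abundant factor in LCC. It stood at 0.964 FPKM in LCC, against 2.90 in E-Int29-Hi and 15.6 in MG. MG was the high library, and LCC was 16.2-fold under it. The log2 changes were -3.08 for LCC over MG, where 0.579% of names stood lower, -2.09 for E-Int29-Hi over MG and -0.99 for LCC over E-Int29-Hi.

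Elf3, an ETS factor of many simple epithelia, was the steadiest of the 10. It stood at 24.4 FPKM in LCC, against 22.5 in E-Int29-Hi and 17.0 in MG. The ends of this range differ by 1.44-fold, and the sign of the Elf3 change turned under at least 1 scaling in each comparison. Summed over the 3 ETS factors, the level was 51.8 FPKM in LCC, against 27.3 in E-Int29-Hi and 51.6 in MG. Elf5 held 1.86% of that sum in LCC, against 10.6% in E-Int29-Hi and 30.3% in MG, while Ehf held 51.0% of it in LCC, against 7.04% in E-Int29-Hi and 36.8% in MG. Ehf and Elf5 are adjacent protein-coding genes on chromosome 2 in the GENCODE annotation of GRCm38.

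The RefSeq promoter table (GRCm38.p6) lists 2 start sites for Elf5, and both windows are shown because Elf5 is the factor with the lowest level in LCC and FPKM per gene do not say which start was used. Each window runs from 250 bases before the start to 50 after it, 5′ to 3′ on the gene's strand. The windows lie at chr2:103411848-103412147 and chr2:103423818-103424117 on the plus strand. Capitals mark motifs searched on both strands, and no match overlapped another. The letters searched were AGATAA for Gata factors, then GGAAG for Ets factors, then TGTTTAC for forkhead factors, then ACAAT for Sox factors, then TGTGGT for Runx factors and finally GGTGTGA for T-box factors.
Elf5, first start: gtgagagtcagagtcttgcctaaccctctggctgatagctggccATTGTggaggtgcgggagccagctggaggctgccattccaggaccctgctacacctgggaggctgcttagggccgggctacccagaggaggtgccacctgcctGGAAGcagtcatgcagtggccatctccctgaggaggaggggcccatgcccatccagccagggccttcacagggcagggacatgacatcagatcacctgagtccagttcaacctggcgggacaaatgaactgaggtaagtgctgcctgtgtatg
Elf5, second start: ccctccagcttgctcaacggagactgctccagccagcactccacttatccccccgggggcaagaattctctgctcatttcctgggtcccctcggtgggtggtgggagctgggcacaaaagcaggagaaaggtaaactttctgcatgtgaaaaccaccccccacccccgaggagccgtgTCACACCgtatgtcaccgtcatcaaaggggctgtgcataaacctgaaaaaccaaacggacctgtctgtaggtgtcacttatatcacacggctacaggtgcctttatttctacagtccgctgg
The first window holds a SOX match that begins 206 bases before the start and an ETS match 103 bases before it. The second holds a T-box match 72 bases before its start. Of the 32851 windows in the table, 31% hold the SOX letters, 71.4% the ETS letters and 3.98% the T-box letters.

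Foxa1, a forkhead factor that opens chromatin for the estrogen receptor in hormone-sensing luminal cells, was low in both sorted populations. It stood at 2.80 FPKM in LCC, against 0.761 in E-Int29-Hi and 10.3 in MG. MG was the high library, and Foxa1 was the least abundant of the 10 factors in E-Int29-Hi and in MG. The log2 changes were -1.57 for LCC over MG, -2.68 for E-Int29-Hi over MG and 1.11 for LCC over E-Int29-Hi.

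Gata3, a zinc-finger factor that establishes and maintains luminal cells, went against its lineage label. It stood at 17.5 FPKM in LCC, against 47.2 in E-Int29-Hi and 20.7 in MG. The basal-rich E-Int29-Hi library held 55.3% of the sum over the libraries, and LCC and MG were close together. The log2 changes were -1.38 for LCC over E-Int29-Hi, -0.23 for LCC over MG and 1.15 for E-Int29-Hi over MG. The ratio of Gata3 to Foxa1, its partner in hormone-sensing cells, was 6.25 in LCC, against 62.0 in E-Int29-Hi and 2.01 in MG.

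Gata3 shares its locus with other gene models, chosen here after their values were seen. The gene 4930412O13Rik, on the opposite strand, was listed at 0 in LCC, at 12.6 FPKM in E-Int29-Hi and at 5.50 in MG. The gene 9230102O04Rik, on the same strand, was listed at 0 in LCC, at 5.86 FPKM in E-Int29-Hi and at 1.47 in MG. Use of strand is not stated for the counting, so reads from the overlapping parts cannot be told apart. Part of the Gata3 values may belong to these models, and the amount was not tested.

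Tbx3, a T-box factor needed for the first mammary buds and kept in hormone-sensing luminal cells, stood at 13.2 FPKM in LCC, against 6.88 in E-Int29-Hi and 21.5 in MG. MG was highest and E-Int29-Hi lowest, with 3.13-fold between them. On the log2 scale Tbx3 differed by 0.85 for LCC over E-Int29-Hi, -0.67 for LCC over MG and -1.51 for E-Int29-Hi over MG, with pan-epithelial scaling turning the first to -0.71 and the last to 0.10.

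Promoter windows of Foxa1, Gata3 and Runx1 are shown because they stand for the contrasting patterns: Foxa1 was lowest, and Gata3 and Runx1 were highest, in E-Int29-Hi. They lie at chr12:57546062-57546361, chr2:9878551-9878850 and chr16:92826025-92826324, all on the minus strand, and are printed as for Elf5. Runx1 has 2 start sites in the table and the window with motif matches is the one given.
Foxa1: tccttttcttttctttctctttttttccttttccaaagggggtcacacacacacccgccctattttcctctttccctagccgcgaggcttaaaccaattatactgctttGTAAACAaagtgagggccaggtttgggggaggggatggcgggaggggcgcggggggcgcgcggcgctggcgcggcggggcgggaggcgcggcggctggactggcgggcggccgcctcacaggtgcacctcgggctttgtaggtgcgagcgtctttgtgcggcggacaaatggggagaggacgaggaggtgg
Gata3: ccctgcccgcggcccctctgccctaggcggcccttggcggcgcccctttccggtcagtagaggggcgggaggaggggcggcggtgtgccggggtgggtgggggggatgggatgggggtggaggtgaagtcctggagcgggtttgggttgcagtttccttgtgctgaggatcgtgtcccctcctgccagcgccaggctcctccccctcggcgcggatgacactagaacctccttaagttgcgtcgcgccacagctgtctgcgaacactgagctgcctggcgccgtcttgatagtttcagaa
Runx1, distal start: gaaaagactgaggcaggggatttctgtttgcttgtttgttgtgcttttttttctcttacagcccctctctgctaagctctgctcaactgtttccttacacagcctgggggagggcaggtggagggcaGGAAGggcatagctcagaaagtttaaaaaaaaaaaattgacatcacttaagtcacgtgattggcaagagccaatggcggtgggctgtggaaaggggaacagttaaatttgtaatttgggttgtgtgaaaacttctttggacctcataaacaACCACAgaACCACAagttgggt
The Foxa1 window holds a forkhead match that begins 141 bases before the start, and 3.65% of all windows hold those letters. The Runx1 window holds an ETS match 123 bases before the start and a pair of RUNX matches at bases 29 and 37 of the transcript, with RUNX letters in 16.8% of all windows. None of the 6 motifs' letters is in the Gata3 window. Windows were found for 5 of the 10 factors, and the others, among them Sox10 and Trp63, are described by their values only. These matches describe the letters and say nothing of binding.

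Set against the cells of the gate labelled as containing them, LCC differed most in Sox10, Ehf and Trp63. Genes were counted as higher or lower where they stood at least 4-fold apart on the log2(FPKM + 1) scale, among names at 1 FPKM or more in either library. Of the 9 factors with status OK, 1 (Ehf) was higher in LCC than in E-Int29-Hi, against 4.64% of all 12147 names, and 2 (Sox10 and Trp63) were lower, against 4.35%. At 2-fold, 2 factors were higher (Ehf and Foxa1) and 3 lower (Sox10, Trp63 and Gata3), against 21.2% and 14.1% of all names. The median of the 9 was -0.51, against 0.26 for all names. Sox10 and Trp63 stayed past 4-fold under each alternative run, with log2 changes from -5.43 to -3.46 and from -4.29 to -2.16. The 2-fold difference of Foxa1 did not hold with a pseudocount of 5 (0.44), median ratio scaling (0.96), pan-epithelial scaling (0.12) or scaling to Epcam (0.94). Ehf had 1.88 with libraries scaled to pan-epithelial genes, under the 4-fold line.

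Against the intact gland, LCC differed past 4-fold in Elf5 only among the 9. No factor was higher, against 1.33% of 12443 names, and 1 was lower, against 2.63%. At 2-fold, 0 were higher and 4 lower (Elf5, Foxa1, Trp63 and Sox9), against 10.9% and 12.8% of all names. The median of the 9 was -0.67, against 0.01 for all names. Elf5 had -1.79 with a pseudocount of 5. With that pseudocount Foxa1, Trp63 and Sox9 had -0.97, -0.76 and -0.94, under the 2-fold line, and with pan-epithelial scaling Trp63 and Sox9 had -0.97 and -0.96. Sox9 also had -0.97 with median ratio scaling, where Trp63 lay just under the line.

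The gated cells were set against the gland next. Comparing E-Int29-Hi with MG, Sox10 was higher, 1 of the 9 factors against 2.6% of 12430 names, and Ehf, Foxa1 and Elf5 were lower, 3 of 9 against 3.97%. At 2-fold, Sox10, Trp63 and Gata3 made 3 higher and Ehf, Foxa1, Elf5 and Tbx3 made 4 lower, against 8.99% and 15.5% of all names. The median of the 9 was -0.51, against -0.23 for all names. With a pseudocount of 5, Ehf, Foxa1 and Elf5 had -1.79, -1.41 and -1.39, and with pan-epithelial scaling they had -1.38, -1.58 and -0.61, so none of these 3 calls held. That scaling also moved the median of all names to 1.28. Relative to that median, Ehf stood at -2.65, Foxa1 at -2.85 and Elf5 at -1.89. Elf5 also had -1.81 with median ratio scaling. The 2-fold difference of Gata3 was 0.75 with scaling to Epcam. These 3 comparisons share libraries, so they are not independent of each other.

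**Figure D2:**
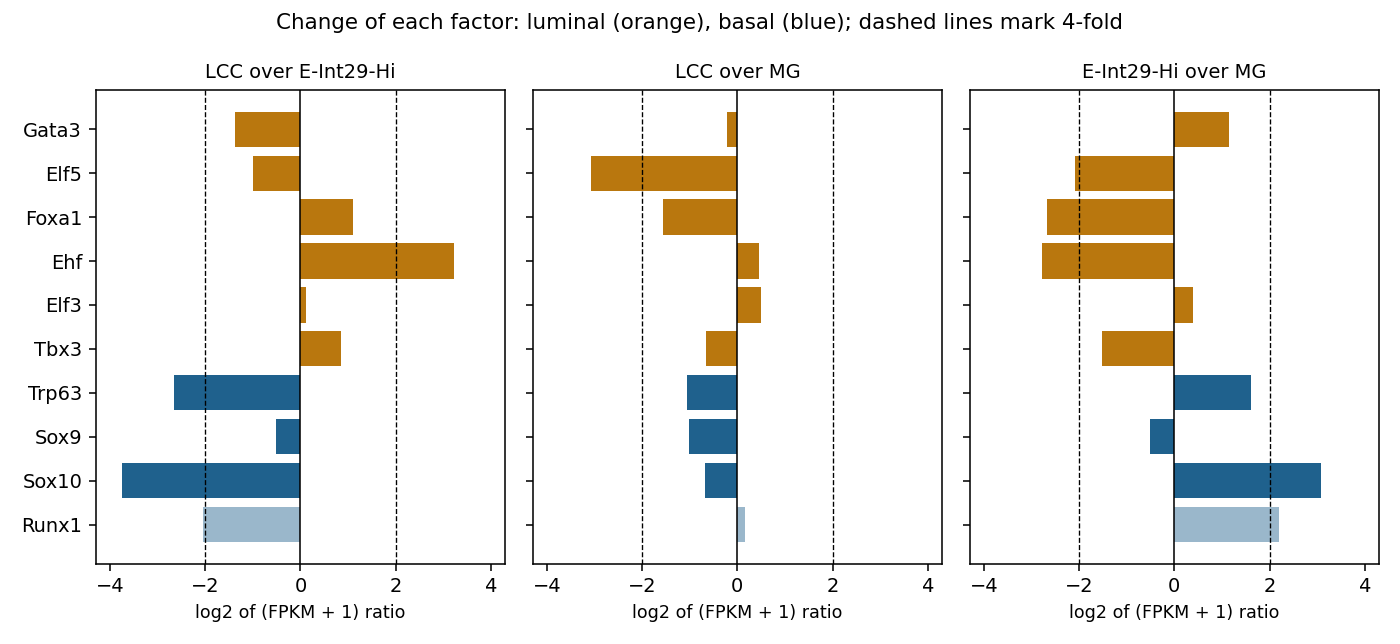
Log2 ratio of FPKM + 1 for each factor (luminal orange, basal blue) in LCC over E-Int29-Hi, LCC over MG and E-Int29-Hi over MG; dashed lines mark 4-fold, and Runx1 is pale because its LCC status is FAIL. Sox10 lies past the line at -3.76 and 3.09 in the comparisons that involve E-Int29-Hi, and Elf5 at -3.08 in LCC over MG.

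Because MG holds stroma and the gate selects basal cells, levels were also set beside epithelial genes of the same library. Per Epcam, Sox10 was 4.61% of the Epcam level in LCC, against 77.3% in E-Int29-Hi and 11.7% in MG. Elf5 was 0.297% of it in LCC, against 1.04% in E-Int29-Hi and 7.50% in MG. Gata3 was 5.39% of it in LCC, against 16.9% in E-Int29-Hi and 9.90% in MG. The libraries kept the order of the deposited FPKM for each of these factors, but not for Ehf, Elf3 and Runx1. Ehf was 8.13% of the Epcam level in LCC and 9.10% in MG. Elf3 was lowest in LCC, at 7.50%, against 8.07% in E-Int29-Hi and 8.14% in MG. Runx1 was 18.4% in LCC, with the status FAIL, and 25.6% in MG. Epcam is also a gene of the gate. The geometric mean of 11 pan-epithelial genes was 36.2 FPKM in LCC, against 11.1 in E-Int29-Hi and 37.6 in MG, while 5 of the 11 were lower past 4-fold in E-Int29-Hi than in LCC, including the claudin gene Cldn7 at 60.6 FPKM in LCC and 2.06 in E-Int29-Hi.

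**Figure D3:**
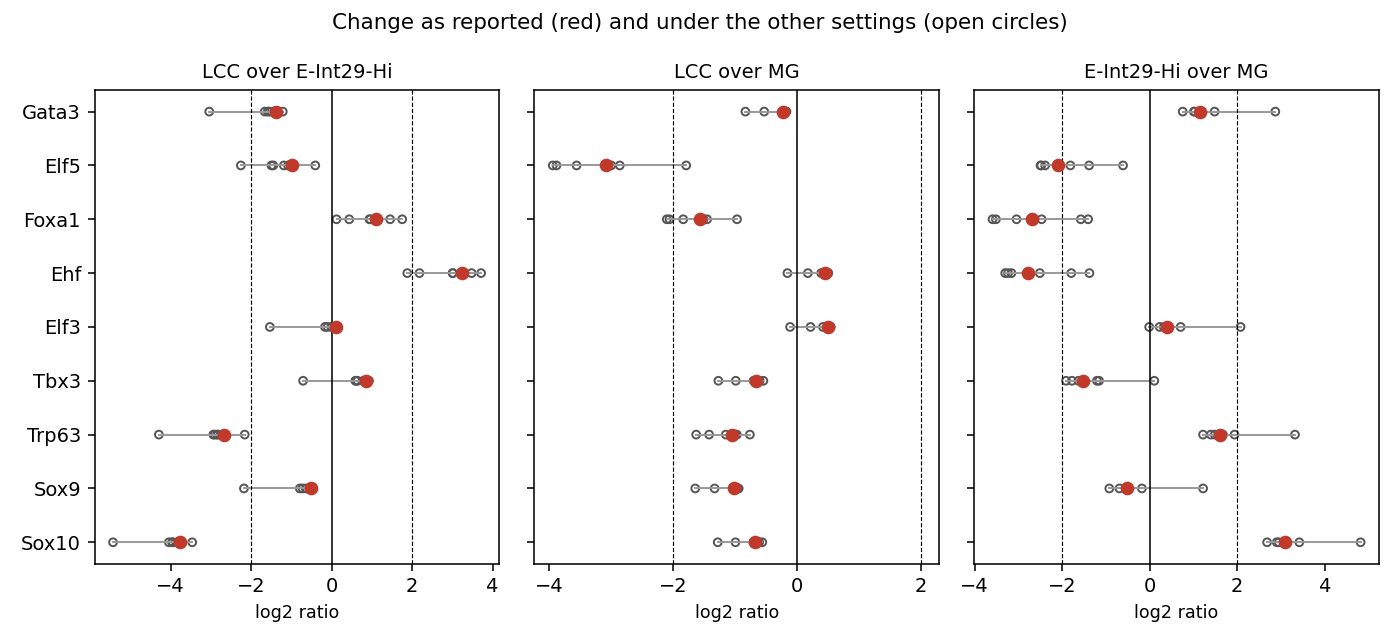
Log2 change of the 9 factors with status OK in each comparison, as reported (red) and under the other settings (open circles); dashed lines mark 4-fold. Sox10 in LCC over E-Int29-Hi ranges from -5.43 to -3.46, and Sox9 in E-Int29-Hi over MG lies on both sides of 0, from -0.92 to 1.22.

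Other regulators of each lineage were counted the same way. The shares of all names given here apply to this list and to those that follow. Past 4-fold, 4.64% of all names were higher and 4.35% lower in LCC over E-Int29-Hi, with a median of 0.26. For LCC over MG the shares were 1.33% and 2.63%, with a median of 0.01. For E-Int29-Hi over MG they were 2.6% and 3.97%, with a median of -0.23. Of 9 tested among the other basal regulators, 3 were lower in LCC than in E-Int29-Hi and 0 higher, with a median of -1.15. Comparing E-Int29-Hi with MG, the same 3 were higher, and 0 of 8 passed 4-fold between LCC and MG. They were Snai2, a zinc-finger repressor of epithelial genes, at 5.81 FPKM in LCC, against 39.9 in E-Int29-Hi and 7.24 in MG, Id4, an inhibitor of helix-loop-helix factors, at 1.77 FPKM in LCC, against 35.4 in E-Int29-Hi and 6.08 in MG, as well as the homeobox gene Irx4, at 0.949 FPKM in LCC, against 21.7 in E-Int29-Hi and 2.63 in MG. Like Sox10, Trp63 and Runx1, each was highest in E-Int29-Hi.

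The other luminal regulators had medians below 0 in each comparison. Of 15 tested against E-Int29-Hi, 2 were lower and 0 higher, with a median of -1.01. Both were AP-2 genes: the gene listed as Tcfap2c, for AP-2 gamma, stood at 5.74 FPKM in LCC, against 69.1 in E-Int29-Hi and 15.5 in MG, while Tcfap2b stood at 0.583 FPKM in LCC, against 11.7 in E-Int29-Hi and 8.37 in MG. Against MG, 5 of 19 tested were lower in LCC and 0 higher, with a median of -1.29. Among them were the hormone receptor genes Pgr, at 0.179 FPKM in LCC and 43.9 in MG, and Esr1, at 0.734 in LCC and 10.6 in MG. Esr1 and Foxa1 were thus both lower in LCC than in MG, with log2 changes of -2.74 and -1.57. Of 19 tested in E-Int29-Hi against MG, 1 was higher (Tcfap2c) and 3 lower (Pgr, Myb and Msx2), with a median of -0.44.

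Genes known to depend on these factors elsewhere were described next to them. Of 12 genes known as p63 targets in stratified epithelium, 8 were lower in LCC than in E-Int29-Hi and 0 higher, with a median of -2.53, and 5 were past 4-fold up comparing E-Int29-Hi with MG and 0 down. Against MG, 1 was higher in LCC (Lamb3, a laminin chain, at 69.98 against 15.1 FPKM) and 1 lower (Fgfr2, a growth factor receptor, at 6.53 against 51.5 FPKM), although Trp63 was 2.24-fold lower. Of 5 tested milk genes known to need Elf5 and Stat5, 5 were lower in LCC than in MG, while comparing E-Int29-Hi with MG the same 5 were lower. Stat5a, their regulator, had -1.46 for LCC over MG. Csn3, the kappa-casein gene, stood at 19.5 FPKM in LCC, against 65.6 in E-Int29-Hi and 466 in MG, an order shared with Elf5. The p63 list overlaps the basal markers and the milk list overlaps the alveolar markers.

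Marker genes of the luminal cell types stood beside Foxa1 and Elf5 as follows. Of the hormone-sensing markers, 6 of 7 tested were lower in LCC than in MG, with a median of -3.49, and 5 of 8 were lower comparing E-Int29-Hi with MG, with a median of -3.38. Of the progenitor and alveolar markers, 4 of 9 were lower in LCC than in MG, with a median of -1.66, and 8 of 9 were lower comparing E-Int29-Hi with MG, with a median of -2.86. No gene of either list was past 4-fold higher in these comparisons with MG. The 4 were milk genes counted above: Csn1s1, Csn2, Csn3 and Lalba. At 2-fold, 8 of 9 were lower in LCC than in MG, all but Aldh1a3. Aldh1a3 stood at 83.5 FPKM in LCC, against 1.17 in E-Int29-Hi and 71.8 in MG. For LCC over E-Int29-Hi, 1 of 9 progenitor and alveolar markers was higher past 4-fold (Aldh1a3) and 2 were lower (Csn2 and Lalba), with a median of -1.10. Of 8 tested genes known to follow the estrogen receptor, Foxa1 or Gata3, 4 stood lower in LCC and 0 higher when set against MG, and 4 were lower and 1 higher comparing E-Int29-Hi with MG. Between LCC and E-Int29-Hi, 2 of 6 were higher in LCC and 1 lower. This list shares genes with earlier ones, so its counts are not separate from theirs. Pgr is also among the hormone-sensing markers and the other luminal regulators. Cited1 and Areg are also among the former, and Myb and Tcfap2c among the latter, while Esr1 is on both of those lists. Areg, the growth factor amphiregulin, stood at 54.7 FPKM in LCC, against 5.86 in E-Int29-Hi and 179 in MG, the library order of Foxa1. The list as a whole did not follow that order. Myb shared it, but Pgr was lowest in LCC and Tcfap2c was highest in E-Int29-Hi.

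Collagen genes that Sox9 activates in cartilage had the library order of Sox10 and not that of Sox9. Of 5 tested, 4 were lower in LCC than in E-Int29-Hi and 0 higher, with a median of -4.03, while Sox9 itself differed by -0.51. Col9a2 stood at 0.310 FPKM in LCC, against 132 in E-Int29-Hi and 9.75 in MG. Col9a3 stood at 1.60 FPKM in LCC, against 80.9 in E-Int29-Hi and 7.21 in MG. All 5 were highest in E-Int29-Hi and lowest in LCC, like Sox10, whereas Sox9 was highest in MG. Erbb3, a neuregulin receptor gene that Sox10 activates in neural crest cells, did not share the order of Sox10 and stood at 7.48 FPKM in LCC, against 1.35 in E-Int29-Hi and 22.9 in MG.

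**Figure D4:**
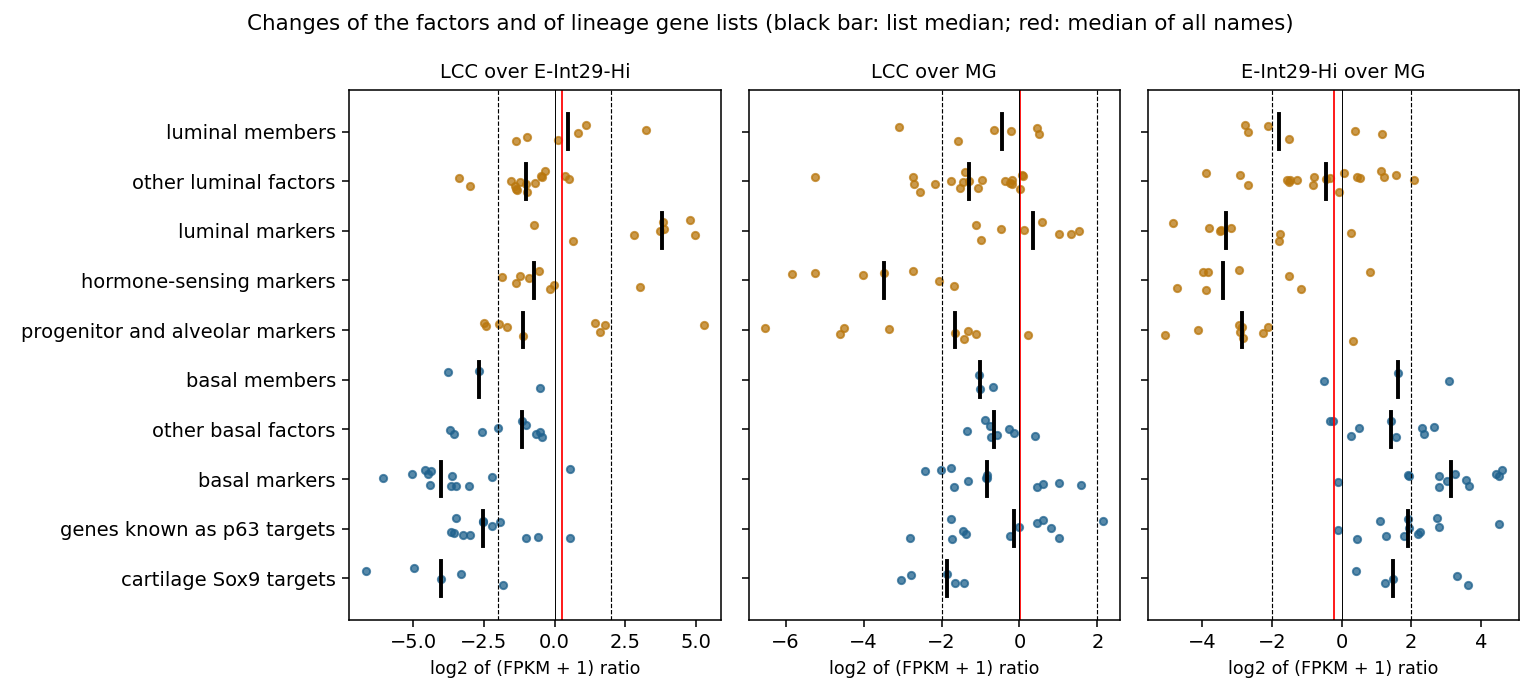
Log2 ratio of FPKM + 1 for the luminal (orange) and basal (blue) factors and the lineage lists in the 3 comparisons; each dot is 1 gene, black bars mark list medians, the red line marks the median of all names and dashed lines mark 4-fold. In LCC over E-Int29-Hi the luminal markers have a median of 3.79 and the basal markers one of -4.01, while the luminal factors have one of 0.48.

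Each factor was matched to the marker and regulator genes with the nearest profile, by the distance between log2(FPKM + 1) values centred over the 3 libraries. With 3 libraries such a match is loose, so the number of all names as near or nearer is given. Sox10 lay nearest to Lgr5, a receptor of basal stem cells (distance 0.21, 14 of 12771 names as near), and to Irx4 (0.31, 24 names). Elf5 lay nearest to the casein gene Csn1s1 (0.19, 6 names) and Ehf to Cldn4 (0.38, 26 names). Gata3 lay nearest to Lmo4, a LIM-domain regulator (0.04, 9 names), and Grhl2, a grainyhead factor of epithelium (0.05, 12 names), which like Gata3 were listed as luminal and highest in E-Int29-Hi. Lmo4 stood at 25.4 FPKM in LCC, against 69.3 in E-Int29-Hi and 29.3 in MG. For Elf3, whose level varied least, 1043 names lay as near as its first match, so that match is not particular to it. The first matches of the others were Ltf for Foxa1 (0.24, 17 names), Stat5b for Tbx3 (0.25, 169 names), Mef2c for Sox9 (0.19, 238 names), Nfib for Trp63 (0.49, 169 names) and Snai2 for Runx1 (0.40, 137 names).

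Some of the factors are also known from other cell types, whose markers differed between the libraries. Of 12 lung epithelium genes, 10 reached 1 FPKM in LCC, against 3 in E-Int29-Hi and 3 in MG, while they summed to 659 FPKM in LCC, against 13.0 in E-Int29-Hi and 4.50 in MG. Scgb1a1, the club cell secretoglobin, made up 572 FPKM in LCC, and Nkx2-1, the lung epithelial regulator, stood at 0.177 in LCC and was listed at 0 in the others. Airway epithelium is known to express Ehf, Elf3, Foxa1 and Sox9, and the part of lung cells in their LCC values was not tested.

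T cells and other blood cells express Gata3 and Runx1, and markers of blood cells differed among themselves. The 11 T lymphocyte genes summed to 11.5 FPKM in LCC, against 5.08 in E-Int29-Hi and 15.2 in MG, while Cd3e, a part of the T cell receptor complex, stood at 1.21 FPKM in LCC, against 0.196 in E-Int29-Hi and 2.46 in MG. The 9 macrophage and leukocyte genes summed to 535 FPKM in LCC, against 113 in E-Int29-Hi and 209 in MG. Both sums were lowest in E-Int29-Hi, but Cd14 alone made up 130 FPKM of the macrophage and leukocyte sum in MG. Cd14 is also on the list of progenitor and alveolar markers. That E-Int29-Hi lay under MG in this sum rests on Cd14. Lck, a kinase of T cells, was highest in E-Int29-Hi, at 0.964 FPKM in LCC, against 3.18 in E-Int29-Hi and 2.52 in MG. The 7 platelet genes summed to 28.1 FPKM in LCC, against 23.3 in E-Int29-Hi and 31.1 in MG. Among them Itga2b, an integrin of platelets, was highest in E-Int29-Hi, at 0.857 FPKM in LCC, against 4.42 in E-Int29-Hi and 1.41 in MG. The part of blood cells in the values of Gata3 and Runx1 was not tested.

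Salivary and nerve markers bear on Sox10, which salivary gland and Schwann cells express. The 10 salivary genes summed to 3.15 FPKM in LCC, against 342 in E-Int29-Hi and 35.2 in MG, with Psp, a parotid secretory protein, at 147 FPKM in E-Int29-Hi, and Muc19, a salivary mucin, listed at 0 there. The sum had the library order of Sox10, but not every member did: Aqp5, a water channel, stood at 0.684 FPKM in LCC, against 1.03 in E-Int29-Hi and 30.1 in MG, most of the MG sum. The part of salivary cells in the Sox10 level was not tested. Of the Schwann cell genes, Mbp, for myelin basic protein, stood at 13.7 FPKM in LCC, against 20.2 in E-Int29-Hi and 37.5 in MG. Mbp was highest in MG, not in E-Int29-Hi. Fibroblast genes summed to 1382 FPKM in LCC, against 138 in E-Int29-Hi and 2933 in MG, while endothelial genes summed to 123 FPKM in LCC, against 116 in E-Int29-Hi and 567 in MG.

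**Figure D5:**
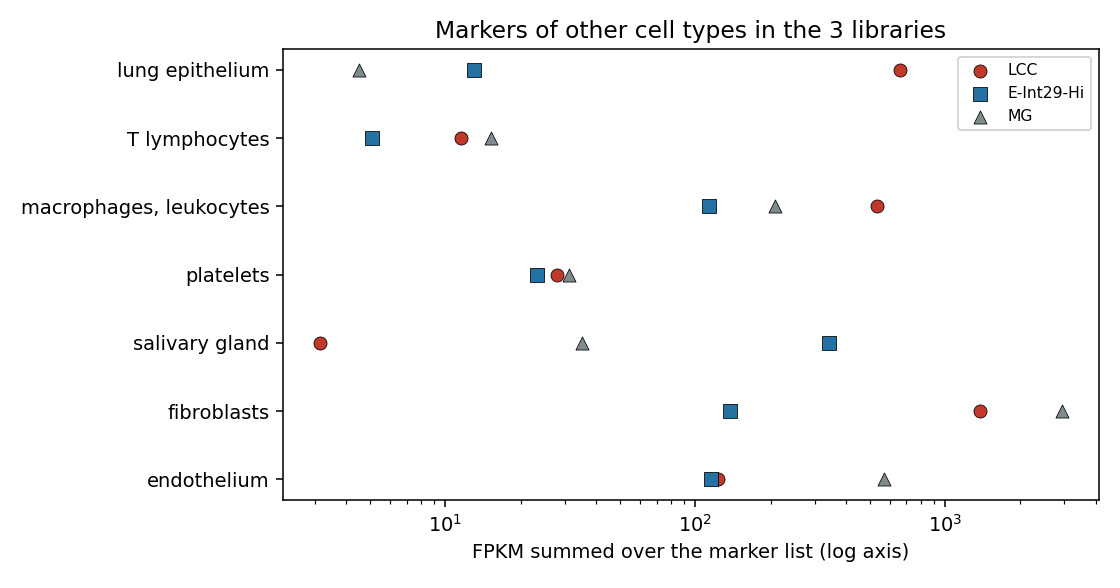
Summed FPKM (log axis) of the marker lists of 7 other cell types or tissues in LCC, E-Int29-Hi and MG, 1 pooled library each. The lung epithelium sum is 659 FPKM in LCC, against 13.0 in E-Int29-Hi and 4.50 in MG, while the salivary sum is 342 FPKM in E-Int29-Hi, against 35.2 in MG.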

How the data were processed

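Messenger RNA was isolated on poly-T beads for TruSeq sequencing, per the labels' protocols. For every library the authors deposited FPKM values by gene, each with a status. Per the submitters' processing notes, TopHat 1.4.1 and Cufflinks 1.3.0 were used, and the genome build was mm9. No source used here names the annotation release. Of 22378 gene models, 78 had no value and 112 were left out for a status other than OK in any library. Where a name stood on several models, the one with the highest summed FPKM was kept, which left 22077 names. With no read counts and 1 library per group, no interval or test was computed.

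Changes are log2 ratios of FPKM + 1 for names at 1 FPKM or more in either library, called at 2 or more in size. The factors and lists were chosen with earlier results of these data known. All 10 factors are named, and of each other list up to 4 genes with the highest FPKM and those past 4-fold could be named, with the nearest profiles. Runx2, Foxa2, Nkx2-1 and Muc19 fall outside that rule and were chosen after their values were seen. The files name Adgre1 and the Tfap2 genes by older symbols, matched by gene identifier. Results that need some genes of the lists are not reported here. Promoter windows are from RefSeq (GRCm38.p6), and gene overlaps and neighbours from GENCODE on GRCm38, another build than the files', so no gene coordinates are given. On data simulated from MG for LCC over MG (12303 names), 25 of 25 genes with a true log2 change of 3 and 25 of 25 with -3 were called, and 0 of 12103 unchanged ones. The simulation held counting noise only, at an assumed depth, with no differences between animals or pools. Changes were given only to genes well above the filter in MG. It therefore checks the calling step and gives no rate of false calls for these libraries or for low genes. At the 4-fold size itself, 8 of 25 were called at a true 2 and 3 of 25 at -2, so calls near the line, such as Elf5 in E-Int29-Hi over MG, are uncertain. The alternatives tried were pseudocounts of 0.1 and 5, dropping the filter or raising it to 5 FPKM, median ratio scaling, TPM, scaling to pan-epithelial genes, summed models and every status, and, added after the data were seen, scaling to Epcam. Python 3.11.15, numpy 2.4.6, pandas 2.3.3 and matplotlib 3.10.9 were used.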

Additional observations from a re-analysis of the deposited data

How the results depend on the processing

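Of 268 log2 changes of single factors under the alternatives, 241 kept their sign and their side of the 4-fold line and 0 that were past it changed sign. Changing the filter, summing models and keeping every status cannot alter the log2 ratio of any of these 9 factors. Those runs are among the 241 by construction, so only the pseudocounts and the scalings put the values to a trial. For LCC against E-Int29-Hi, scaling to pan-epithelial genes gave 0 factors higher and 5 lower, against 1 and 2 as reported. That scaling divided E-Int29-Hi by 0.393 and moved the median of all names to -1.20, against 0.26 as reported. Relative to that median, Ehf stood at 3.08 and Trp63 at -3.09. For LCC against MG, 0 factors were lower with a pseudocount of 5, 2 with TPM and 2 with scaling to Epcam, against 1 as reported, the second being Foxa1. For E-Int29-Hi against MG, 0 factors were lower with a pseudocount of 5 and 0 with pan-epithelial scaling, against 3, and 4 were higher with that scaling and 2 with every status kept, against 1, the second being Runx1. Pan-epithelial scaling moved the median of all names there to 1.28, against -0.23. A larger pseudocount shrinks ratios of low genes by construction. No paired analysis was possible because each group has 1 library. With depth unknown, values near 1 FPKM, such as Elf5 in LCC and Foxa1 in E-Int29-Hi, have no stated precision.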

Other observations

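Of 24 relatives and partners of the factors, 12 reached 1 FPKM in LCC, against 10 in E-Int29-Hi and 15 in MG. For LCC against E-Int29-Hi 14 of the relatives were tested, with 2 higher and 2 lower, against 4.64% and 4.35% of all names. Tbx15, a T-box factor of mesenchyme, stood at 6.44 FPKM in LCC, against 0.496 in E-Int29-Hi and 5.63 in MG, while Runx3, known from T and natural killer cells, stood at 4.44 FPKM in LCC, against 0.279 in E-Int29-Hi and 1.88 in MG. Tbx2, a close relative of Tbx3, stood at 1.16 FPKM in LCC, against 8.40 in E-Int29-Hi and 2.38 in MG, the reverse of the Tbx3 order between LCC and E-Int29-Hi. Foxa3, known from liver and gut, was listed at 0 in LCC and stood at 3.46 FPKM in E-Int29-Hi and 0.0880 in MG. Foxa2, a factor of lung epithelium, stood at 0.842 FPKM in LCC and 0.0403 in E-Int29-Hi and was listed at 0 in MG. Runx2, known from bone and mammary cells, stood at 18.7 FPKM in LCC, against 13.2 in E-Int29-Hi and 8.52 in MG, unlike Runx1. Cbfb, the shared partner of Runx proteins, stood at 21.0 FPKM in LCC, against 21.8 in E-Int29-Hi and 30.4 in MG. The ETS relatives Elf1 and Elf2, found in most tissues, were more abundant than Elf5 in each library, at 21.7 FPKM in LCC, against 50.7 in E-Int29-Hi and 51.7 in MG for Elf1 and 22.97 FPKM in LCC, against 54.2 in E-Int29-Hi and 42.0 in MG for Elf2.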
